A study of Mus musculus with 12 samples.

Results

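Transcript levels of 8 transcription factor genes of mural cells were compared between retinas of 9-day-old and 3-day-old mice. The genes were Foxf2, Foxc1 and Foxs1 of the forkhead family, Tbx18, Tbx2 and Tbx3 of the T-box family, Ebf1 of the Ebf family and Zic1 of the Zic family. They were chosen by name as forkhead, T-box, Ebf and Zic factors of mural cells, and each matched 1 of the 53090 gene rows. RNA bound to HA-tagged ribosomes was sequenced from 6 libraries of postnatal day 9 (P9) and 6 libraries of postnatal day 3 (P3), 12 libraries in all. Both ages were C57BL/6 mice given tamoxifen on postnatal days 1 and 2, with retina as the tissue and retinal pericytes as the labelled cell type. Age and the time since tamoxifen therefore cannot be told apart. The sources used here do not give the promoter that drives the tag, and RNA from before the immunoprecipitation was not analysed here. Whether each library came from its own animals is not stated, so the p-values measure only the spread between libraries, which may be technical. In bulk samples of this kind, fewer cells of a type and less RNA per cell cannot be told apart.

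Mural cells, the pericytes of capillaries and the smooth muscle cells of larger vessels, wrap the endothelial tube and are recruited by platelet-derived growth factor from the endothelium. The mouse retinal vessel bed grows outward from the optic nerve head after birth, and its mural coat matures as the plexus is remodelled. Forkhead factors bind DNA through a winged-helix domain, T-box factors through the T-box, Ebf factors through a zinc-containing domain with a helix-loop-helix for dimerisation, and Zic factors through a row of zinc fingers. Several of these genes also act outside mural cells in the mouse eye: Tbx2 and Tbx3 are expressed in the dorsal neural retina, Ebf1 in differentiating retinal neurons, and Foxc1 in the mesenchyme of the front of the eye.

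Levels are in CPM, the count of a gene relative to its library's total after TMM scaling. The labelled cell type was checked against 15 pericyte marker genes, none of them a transcription factor. Of these, 13 rose, none fell and 2 (Ndufa4l2 and Atp13a5) were not called, with a median log2 fold change (P9 over P3) of 2.33. Their summed level was 2865 to 6417 CPM in P9 libraries and 369 to 1359 CPM in P3 libraries. Of 7 smooth muscle markers tested, 5 rose, none fell and 2 were not called (median log2 fold change 1.83), and the summed level of the list was 155 to 358 CPM in P9 and 46.9 to 120.007 CPM in P3. Markers of other cell types were also present and moved with age. Summed rod markers were 8163 to 16597 CPM in P9 and 1430 to 3097 CPM in P3, summed retinal progenitor markers 831 to 1056 CPM in P9 and 1451 to 1988 CPM in P3, and summed lens markers 49.4 to 1282 CPM in P9 and 4249 to 11331 CPM in P3. All 10 rod markers rose, 8 of 9 progenitor markers fell and 1 rose, and all 9 lens markers fell. Of 11 endothelial markers, 6 rose, 1 fell and 4 were not called. Their sum was 723 to 838 CPM in P9 and 900.3 to 1047 CPM in P3, most of it Kdr, the one that fell; the other 10, summed without Kdr after these values were seen, had 125 to 248 CPM in P9 and 27.6 to 113 CPM in P3. Every marker on these lists had counts in at least 1 library, and the part of these cells in the results on the 8 factors was not tested. Library totals ran from 26839600 to 37776200 counts, so that 1 CPM stood for 25.8 to 38.5 counts. The closest pair of P3 libraries was replicates 4 and 5 (r = 0.970 across tested genes, against a lowest P3 pair of 0.952), and the closest pair of P9 libraries was replicates 5 and 6 (r = 0.974). Replicates 4 and 5 also had the highest pericyte levels of P3, so results that rest on them are given with and without them. The sample names of P9 replicates 5 and 6 are crossed between the labels and the files, which changes no comparison of the ages.

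All 8 factors passed the filter on low counts. At P9, 5 of them rose (Foxf2, Foxc1, Foxs1, Tbx18 and Ebf1), 2 fell (Tbx3 and Tbx2) and Zic1 was not called. Among all 18638 genes tested, 26.1% rose, 25.6% fell and 51.8% were called in either direction, at an adjusted p under 0.05 in edgeR's quasi-likelihood test. The P9 and P3 libraries did not overlap in 6 of the 8 factors, which was the case for 31.7% of all genes. Foxf2, Foxs1 and Tbx18 rose by at least 4-fold, as did 3.13% of all genes. The median log2 fold change was 1.46 over the 8 factors and -0.0018 over all genes tested. Levels of different factors are not set against each other, because no transcript lengths were at hand.

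**Figure D1:**
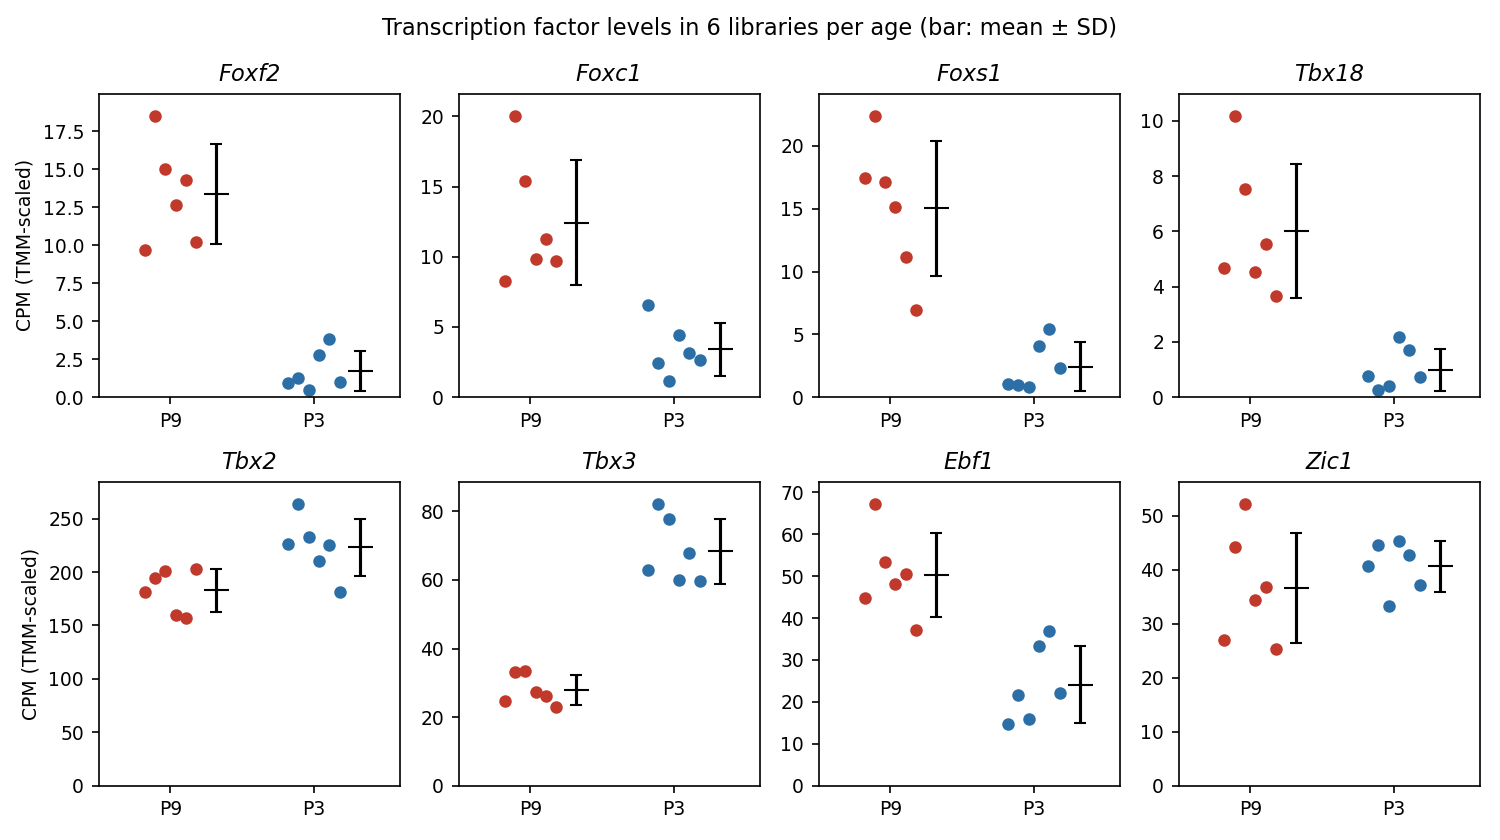
TMM-scaled CPM (y axis, linear, from 0) of each of the 8 factors in P9 (left) and P3 (right) libraries, 1 point per library, with the mean and SD of 6 libraries. P9 points lie wholly above P3 points for Foxf2, Foxc1, Foxs1, Tbx18 and Ebf1 and wholly below them for Tbx3, while those of Tbx2 and Zic1 overlap.

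The forkhead gene Foxf2, needed in mice for brain pericytes to form a tight blood-brain barrier, showed the largest change of the 8. Foxf2 (ENSMUSG00000038402.2, chr13:31625816-31631406 on GRCm38.p6) had a lowest, median and highest level of 9.65, 13.5 and 18.5 CPM in P9 libraries, against 0.465, 1.15 and 3.85 CPM in P3 libraries. Every P9 library was above every P3 library, and P3 replicates 4 and 5 were the highest of their age at 2.79 and 3.85 CPM. The means were 13.4 ± 3.30 CPM in P9 and 1.72 ± 1.31 CPM in P3 (SD, n = 6 each), a log2 fold change of 2.94 ± 0.40 (SE) and a 7.69-fold rise (adjusted p = 2.66e-05, edgeR's quasi-likelihood test with Benjamini-Hochberg adjustment). The P3 values rest on 12 to 125 counts per library and the P9 values on 335 to 712. Without P3 replicates 4 and 5 the log2 fold change of Foxf2 was 3.84 (adjusted p = 2.76e-07, edgeR).

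Foxc1, a forkhead factor that mouse embryos need for mural cells of the brain, the meninges and the front of the eye, rose less. Foxc1 (ENSMUSG00000050295.4, chr13:31806646-31810635) lies 175 kb from Foxf2 on chromosome 13. It had a lowest, median and highest level of 8.29, 10.5 and 20.02 CPM in P9 libraries, against 1.16, 2.90 and 6.54 CPM in P3 libraries. The groups did not overlap, although the highest P3 library, replicate 1, came near the lowest of P9. Foxc1 averaged 12.4 ± 4.45 CPM in P9 and 3.40 ± 1.88 CPM in P3 (SD, n = 6 each), a log2 fold change of 1.87 ± 0.34 (SE; adjusted p = 0.000314, edgeR). P3 replicate 1 also had the highest sum of 11 fibroblast markers, 563 CPM, where the other P3 libraries had 42.0 to 88.1 CPM and the P9 libraries 157 to 249 CPM. Of the 10 fibroblast markers tested, 2 rose, 2 fell and 6 were not called; their part in the Foxc1 level was not tested. Without P3 replicate 1 the log2 fold change of Foxc1 was 2.16 (adjusted p = 7.34e-05, edgeR).

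Foxs1 is a forkhead factor whose transcript marks pericytes and vascular smooth muscle in mice. Foxs1 (ENSMUSG00000074676.2, chr2:152931898-152933208) had a lowest, median and highest level of 6.94, 16.1 and 22.4 CPM in P9 libraries, against 0.775, 1.69 and 5.39 CPM in P3 libraries. The lowest P9 library, replicate 6, lay above the highest P3 library, replicate 5. The means were 15.03 ± 5.38 CPM in P9 and 2.44 ± 1.91 CPM in P3 (SD, n = 6 each), a log2 fold change of 2.61 ± 0.45 (SE; adjusted p = 0.000206, edgeR). Without P3 replicates 4 and 5 it was 3.53 (adjusted p = 6.49e-06, edgeR).

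Tbx18, a T-box repressor whose expression marks mural cells in many organs of adult mice, rose 5.97-fold. Tbx18 (ENSMUSG00000032419.8, chr9:87702800-87731260) had a lowest, median and highest level of 3.65, 5.11 and 10.2 CPM in P9 libraries, against 0.250, 0.741 and 2.17 CPM in P3 libraries. No P3 library reached the P9 range, and replicates 4 and 5 were again the highest of P3. The log2 fold change was 2.58 ± 0.46 (SE; adjusted p = 0.000256, edgeR), from means of 6.02 ± 2.43 CPM in P9 and 0.997 ± 0.764 CPM in P3 (SD, n = 6 each). The P3 values of Tbx18 rest on only 7 to 73 counts per library. Without P3 replicates 4 and 5 the log2 fold change was 3.49 (adjusted p = 1.07e-05, edgeR).

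Ebf1, best known as a B-cell fate factor and also expressed in mural cells, rose by a smaller factor. Ebf1 (ENSMUSG00000057098.14, chr11:44618100-45008096) had a lowest, median and highest level of 37.1, 49.4 and 67.1 CPM in P9 libraries, against 14.8, 21.9 and 36.9 CPM in P3 libraries. The ages did not overlap, although the lowest P9 library, replicate 6, and the highest P3 library, replicate 5, nearly met. Ebf1 averaged 50.2 ± 10.01 CPM in P9 and 24.1 ± 9.10 CPM in P3 (SD, n = 6 each), a log2 fold change of 1.06 ± 0.21 (SE) and a 2.08-fold rise (adjusted p = 0.000778, edgeR). Markers of retinal neurons that could also carry Ebf1 moved in both directions. Summed ganglion cell markers were 295 to 536 CPM in P9 and 251 to 297 CPM in P3. Of these 8 markers, 5 rose, 2 fell and 1 was not called. Summed amacrine markers were 626 to 780 CPM in P9 and 756 to 923 CPM in P3. Of these 7 markers, 2 rose, 3 fell and 2 were not called. All 5 bipolar cell markers rose, with a sum of 781 to 1393 CPM in P9 and 32.6 to 43.5 CPM in P3. The sums of horizontal cell markers overlapped between the ages. The part of these neurons in the Ebf1 level was not tested.

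The start regions of the rising factors are shown because these genes were all higher at P9, and they differ in base composition. RefSeq windows on GRCm38.p6 were matched for 5 of the 8 factors, and the 250 bases before the start are printed 5′ to 3′ on the gene's strand for the 4 of these that rose. They are chr13:31625566-31625815 (Foxf2, plus strand), chr13:31806396-31806645 (Foxc1, plus), chr9:87731261-87731510 (Tbx18, minus) and chr11:44617850-44618099 (Ebf1, plus, the upstream one of 2 windows). Capitals mark matches to the motifs searched.
Foxf2: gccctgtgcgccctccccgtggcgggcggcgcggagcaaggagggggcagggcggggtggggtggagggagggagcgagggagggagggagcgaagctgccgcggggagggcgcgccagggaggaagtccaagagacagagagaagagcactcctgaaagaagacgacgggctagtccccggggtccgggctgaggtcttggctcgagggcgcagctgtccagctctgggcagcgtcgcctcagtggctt
Foxc1: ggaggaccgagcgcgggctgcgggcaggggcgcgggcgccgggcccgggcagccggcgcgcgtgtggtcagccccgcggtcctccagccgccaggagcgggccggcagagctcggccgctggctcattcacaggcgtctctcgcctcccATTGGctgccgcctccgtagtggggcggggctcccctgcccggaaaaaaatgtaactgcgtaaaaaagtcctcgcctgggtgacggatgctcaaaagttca
Tbx18: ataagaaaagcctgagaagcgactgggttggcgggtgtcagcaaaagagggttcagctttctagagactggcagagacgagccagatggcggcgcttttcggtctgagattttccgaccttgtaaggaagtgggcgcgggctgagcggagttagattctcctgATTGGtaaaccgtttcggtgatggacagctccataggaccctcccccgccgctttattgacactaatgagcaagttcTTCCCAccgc
Ebf1: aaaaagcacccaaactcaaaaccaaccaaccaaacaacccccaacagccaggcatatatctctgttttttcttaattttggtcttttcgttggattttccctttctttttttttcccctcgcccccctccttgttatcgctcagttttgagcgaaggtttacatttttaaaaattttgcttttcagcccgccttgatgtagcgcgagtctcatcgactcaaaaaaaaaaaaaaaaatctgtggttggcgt
The GC content was 71.6% for Foxf2, 70.8% for Foxc1, 54.0% for Tbx18 and 40.0% for Ebf1, where the median of all windows was 52.4%. Both strands were searched for 6 motifs, given with the share of 32851 windows of the same length that hold them: the forkhead motif TGTTTAC (3.17%), the T-box motif GGTGTGA (3.33%), the Ebf motif of TCCC, any 2 bases and GGGA (0.779%), the RBPJ site TGGGAA (21.6%), the CCAAT box CCAAT (33.9%) and the TATA box TATAAA (12.4%). Foxc1 held a CCAAT match 101 bases before the start, and Tbx18 held a CCAAT match 87 bases and an RBPJ match 10 bases before it. The Foxf2 window and the upstream Ebf1 window held none of the 6 motifs. The other Ebf1 window, not printed, held a T-box match 78 bases and an RBPJ match 207 bases before its start. The window of Zic1, a factor that did not rise, is not printed either and held CCAAT matches 205 and 121 bases before its start. A match is a description of the letters and not a site.

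**Figure D2:**
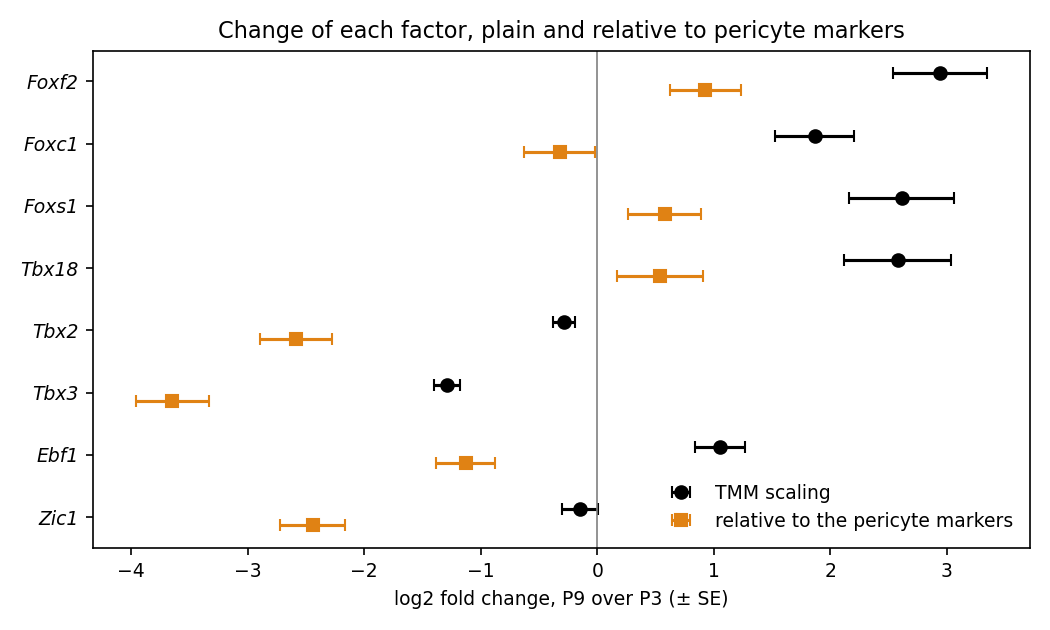
Log2 fold change (x axis, P9 over P3) of each of the 8 factors, with its standard error, as measured with TMM scaling (black circles) and relative to 15 pericyte markers (orange squares). As measured, 5 factors lie to the right of 0 and 2 called factors to the left; relative to the markers, Foxf2 alone lies to the right past the threshold.

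The T-box repressors Tbx2 and Tbx3 are close relatives that limit cardiac chamber fate in the mouse heart and are expressed in the dorsal retina. Both were lower at P9. Tbx3 (ENSMUSG00000018604.18, chr5:119670534-119684724) had a lowest, median and highest level of 23.04, 26.7 and 33.4 CPM in P9 libraries, against 59.8, 65.4 and 82.02 CPM in P3 libraries. The highest P9 library stood well below the lowest P3 library. Means were 27.97 ± 4.33 CPM in P9 and 68.4 ± 9.47 CPM in P3 (SD, n = 6 each), a log2 fold change of -1.29 ± 0.11 (SE), or 2.44-fold lower at P9 (adjusted p = 4.35e-07, edgeR).

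Tbx2 (ENSMUSG00000000093.6, chr11:85832615-85841948) had a lowest, median and highest level of 157, 188 and 203 CPM in P9 libraries, against 181, 226 and 263 CPM in P3 libraries. Its groups overlapped: P3 replicate 6, at 181 CPM, lay within the P9 range. Tbx2 averaged 183 ± 20.4 CPM in P9 and 223 ± 27.03 CPM in P3 (SD, n = 6 each), a log2 fold change of -0.29 ± 0.096 (SE; adjusted p = 0.0211, edgeR). The call was lost without P3 replicate 2 (adjusted p = 0.0521), without P9 replicate 4 (0.0513) or without P9 replicate 5 (0.0521), each in edgeR's test.

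Tbx3 fell by more than Tbx2 did. The log2 ratio of Tbx3 to Tbx2 per library, with 0.5 CPM added to each, was -2.69 ± 0.24 in P9 (-3.11 to -2.54) and -1.70 ± 0.11 in P3 (-1.84 to -1.57). The difference was -0.99, with no overlap between the ages (exact two-sided permutation p = 0.00216, the smallest that 924 assignments can give; adjusted over 3 pairs 0.00649). Summed retinal progenitor markers, given above, were lower at P9 in the same libraries, and their part in the 2 T-box genes was not tested.

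Zic1, a zinc finger factor of the early neural tube and neural crest that also marks meningeal and brain mural cells in mice, was not called. Zic1 (ENSMUSG00000032368.14, chr9:91358058-91365768) had a lowest, median and highest level of 25.3, 35.6 and 52.1 CPM in P9 libraries, against 33.2, 41.7 and 45.4 CPM in P3 libraries. The P9 libraries spread on both sides of the P3 range. Means were 36.6 ± 10.2 CPM in P9 and 40.6 ± 4.68 CPM in P3 (SD, n = 6 each), a log2 fold change of -0.15 ± 0.16 (SE; adjusted p = 0.450, edgeR).

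Zic1 moved differently from its neighbour Zic4, which fell. The log2 ratio of Zic1 to Zic4 was 3.13 ± 0.41 in P9 (2.44 to 3.50) and 2.28 ± 0.21 in P3 (2.03 to 2.53), a difference of 0.86 (exact two-sided permutation p = 0.00649, n = 6 each; adjusted over 3 pairs 0.00974). The genes lie head to head on opposite strands and share 138 bases. The library kit was stranded, but the notes do not say whether the counting used strand.

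Foxc1 and Foxf2, neighbours on chromosome 13, also changed unequally. The log2 ratio of Foxc1 to Foxf2 was -0.13 ± 0.19 in P9 (-0.34 to 0.11) and 0.86 ± 0.83 in P3 (-0.24 to 2.30), a difference of -0.997 (exact two-sided permutation p = 0.0108, n = 6 each; adjusted over 3 pairs 0.0108). The P3 ratios ranged widely and the highest was that of replicate 1. Foxq1, the forkhead gene on the other side of Foxf2, averaged 1.82 ± 0.985 CPM in P9 and 1.17 ± 1.36 CPM in P3 (SD, n = 6 each) and was not called (log2 fold change 0.63, adjusted p = 0.383, edgeR). Foxq1 was chosen here for its position.

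The spread between libraries differed among the factors. The coefficients of variation of Foxf2, Foxc1, Foxs1 and Tbx18 were 24.7% to 40.3% in P9 and 55.2% to 78.5% in P3. Ebf1 varied by 19.9% in P9 and 37.7% in P3. Tbx2, Tbx3 and Zic1 varied by 11.2% to 27.9% in P9 and 11.5% to 13.8% in P3. The widest spread in P3 was thus among the 4 factors that rose most, which had only 7 to 198 counts per P3 library. Much of it came from few libraries. Replicates 4 and 5 were the highest of P3 for Foxf2, Foxs1 and Tbx18, and replicate 1 for Foxc1. For Foxf2 they had 2.79 and 3.85 CPM, where the other P3 libraries had 0.465 to 1.28 CPM. The spread without these libraries was not computed.

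Whether a factor changed by more or less than the pericyte markers in the same libraries was tested with the mean of the 15 markers as an offset. That mean, in log2(CPM + 1), was 6.23 ± 0.29 in P9 (5.80 to 6.68) and 4.01 ± 0.56 in P3 (3.22 to 4.69; SD, n = 6 each), a difference of 2.22. Relative to it, 1 factor was higher at P9, 4 were lower and 3 were not called. Among all genes 1.02% were higher and 92.6% lower, with a median of -2.28, so a lower call is what most genes gave.

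Foxf2 was the one factor higher relative to the markers, with a relative log2 fold change of 0.92 ± 0.30 (SE; 1.90-fold, adjusted p = 0.00500, edgeR). That call depended on how the pericyte level was summarised: the value was 0.67 (adjusted p = 0.0788) with the summed CPM of the markers and 0.55 (adjusted p = 0.149) with Pdgfrb alone. Foxs1 had 0.58 ± 0.31 (adjusted p = 0.0778), Tbx18 0.54 ± 0.37 (adjusted p = 0.155) and Foxc1 -0.32 ± 0.31 (adjusted p = 0.307), all in edgeR's test and none of them called. Foxs1 was called when P3 replicate 4 (adjusted p = 0.0476), P3 replicate 5 (0.0149) or P9 replicate 6 (0.0468) was left out, and without P3 replicates 4 and 5 together both Foxs1 (0.99, adjusted p = 0.00284) and Tbx18 (0.95, adjusted p = 0.0140) were called. Foxc1 stood at 0.0033 without P3 replicate 1, the library with the high fibroblast sum.

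The 4 factors that were lower relative to the markers included Ebf1, which rose as measured. Ebf1 had a relative log2 fold change of -1.13 ± 0.25 (SE; adjusted p = 9.67e-05), Zic1 of -2.44 ± 0.28 (7.55e-10), Tbx2 of -2.58 ± 0.31 (1.97e-09) and Tbx3 of -3.65 ± 0.31 (3.18e-12), all in edgeR's test. Ebf1 thus rose by less than the mean of the 15 markers, although some of them, such as Mcam (log2 fold change 0.65), rose by less than Ebf1 did.

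Within P9, the libraries with a higher pericyte marker mean had higher levels of most of the 8 factors. The relation was measured over the 6 libraries between log2(CPM + 1) of a factor and the marker mean, with exact two-sided permutation p-values. Ebf1 followed the markers with Pearson's r = 0.986 (exact p = 0.00417) and Spearman's rho = 0.943 (0.0167), and Tbx18 with r = 0.926 (0.00972) and rho = 0.829 (0.0583). Tbx3 had r = 0.902 (exact p = 0.00833) and rho = 0.943 (0.0167), although its level was lower at P9 than at P3. All 3 forkhead factors also had positive values: Foxf2 r = 0.900 (exact p = 0.0153) and rho = 0.886 (0.0333), Foxs1 r = 0.843 (0.0361) and rho = 0.657 (0.175), and Foxc1 r = 0.841 (0.0278) and rho = 0.886 (0.0333). Zic1 had r = 0.813 (exact p = 0.0514) and rho = 0.886 (0.0333). Tbx2 alone had values near 0, with r = -0.017 (exact p = 0.967) and rho = -0.0857 (0.919).

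In 6 of the 8 factors r was above 0 with an unadjusted exact p under 0.05 at P9, as it was for 4.72% of the 18623 genes outside the marker list. No factor and no other gene passed after Benjamini-Hochberg adjustment (adjusted p of the factors 0.436 to 0.996). With 6 libraries no exact permutation p can be below 0.00139, and the smallest among the factors at P9 was 0.00417 (Ebf1). At an unadjusted exact permutation p under 0.05, 1381 genes passed in either direction at P9 and 2811 at P3. Without P9 replicates 2 and 6, the libraries farthest from the median of the marker mean, r was 0.853 for Ebf1, 0.680 for Tbx18, 0.901 for Tbx3, 0.835 for Foxf2, 0.858 for Foxc1 and 0.912 for Zic1. The Foxs1 relation rested on those libraries, with r = 0.053 without them. P9 replicate 6 had the lowest pericyte mean and also the highest rod sum of its age; the part of rods was not tested.

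At P3, over 6 libraries, Tbx18 followed the marker mean with r = 0.931 (exact permutation p = 0.0153) and rho = 0.943 (0.0167). Foxf2 had r = 0.916 (exact p = 0.0181) and rho = 0.714 (0.136), and Foxs1 had r = 0.881 (0.0264) and rho = 0.886 (0.0333). These 3 factors with few P3 counts were highest in the libraries with the most pericyte marker RNA, replicates 4 and 5. Those libraries also had the highest rod sums of P3, 3097 and 2859 CPM, where the others had 1430 to 1964 CPM. Their Mueller glia sums, 1159 and 1223 CPM, were the highest of P3 as well. The part of these cells in the P3 relations was not tested. Ebf1 had r = 0.810 (exact p = 0.0597) and rho = 0.6 (0.242), Zic1 r = 0.740 (0.0903) and rho = 0.657 (0.175), and Foxc1 r = 0.665 (0.139) and rho = 0.829 (0.0583). Tbx2 and Tbx3 had values below 0, with r = -0.244 (exact p = 0.690) and rho = -0.6 (0.242) for Tbx2 and r = -0.617 (0.199) and rho = -0.543 (0.297) for Tbx3.

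For 3 of the 8 factors at P3 r was above 0 with an unadjusted p under 0.05, as for 6.87% of all genes outside the marker list, and none passed the adjustment (adjusted exact permutation p 0.254 to 0.858). Without replicates 4 and 3, the farthest from the median, r was 0.966 for Tbx18, 0.868 for Foxf2, 0.841 for Foxs1 and 0.674 for Ebf1. Zic1 then had 0.145 and Foxc1 0.207, both well below their values over all P3 libraries. Without replicates 4 and 5, the close pair, r over the other 4 libraries was 0.660 for Tbx18, 0.686 for Foxf2, 0.473 for Foxs1, 0.094 for Ebf1 and 0.916 for Foxc1. Without replicate 1 alone, r of Foxc1 was 0.927, and without replicate 2 alone, r of Zic1 was 0.978. The Zic1 and Foxc1 values thus depended on which libraries were left out. The sign of r for Tbx3 was positive at P9 and negative at P3; the difference between the ages was not tested.

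**Figure D3:**
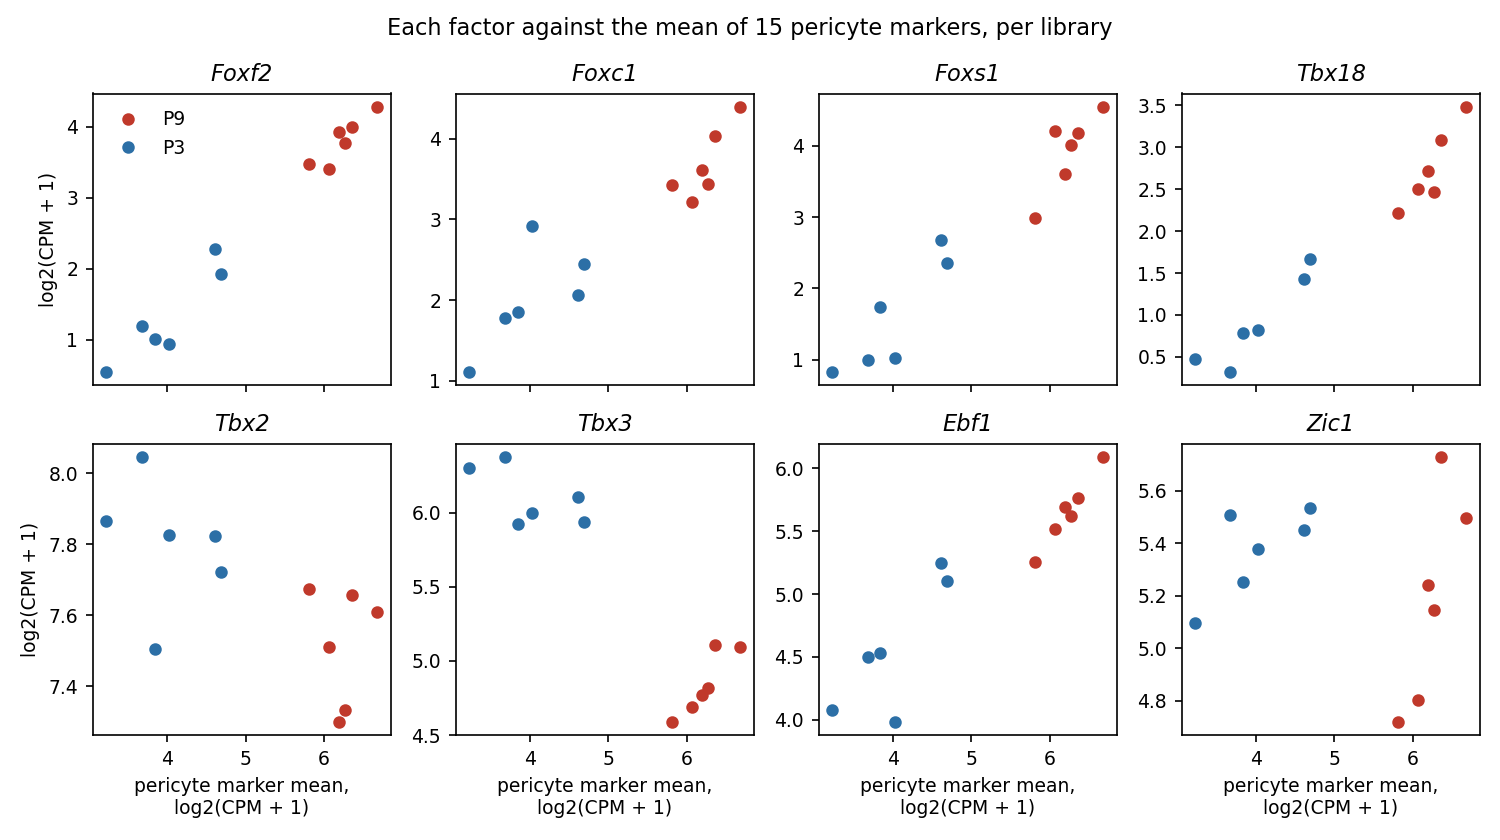
Log2(CPM + 1) of each of the 8 factors (y axis) against the mean log2(CPM + 1) of 15 pericyte markers (x axis) in P9 and P3 libraries, 1 point per library. Tbx18 and Foxf2 climb with the marker mean within both ages, at P3 with a lower r without replicates 4 and 5. No relation passed the adjustment. Ebf1 climbs at P9, while its climb at P3 rests on replicates 4 and 5. Tbx2 shows no slope at P9, and the P9 points of Tbx3 lie below all P3 points.

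After each age's mean was removed, Foxf2, Foxs1, Tbx18 and Ebf1 varied together over the 12 libraries, with r between 0.81 and 0.94 in their 6 pairs (0.51 to 0.83 without P3 replicates 4 and 5). Foxc1 correlated with those 4 at 0.32 to 0.67, Zic1 at 0.47 to 0.66, Tbx3 at 0.02 to 0.15 and Tbx2 at -0.25 to -0.03. Leaving out P3 replicates 4 and 5 gave 0.26 to 0.72 for Foxc1 and 0.48 to 0.86 for Zic1. Tbx3 then had 0.28 to 0.56 and Tbx2 -0.31 to 0.04. The ranges of Foxc1, Zic1 and Tbx3 then overlapped that of the 4 with each other, so their separation rested on those libraries. Over all 12 libraries, Tbx3 was nearer to Zic1 (0.61) and Tbx2 (0.53). These values are descriptions over libraries that share depth and cell makeup, and carry no p.

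**Figure D4:**
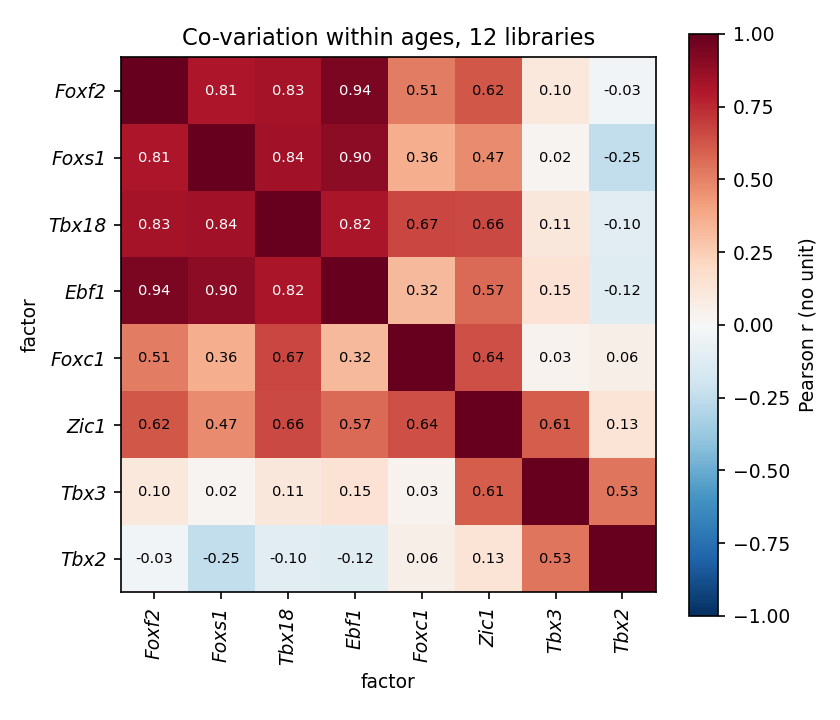
Pearson r between the 8 factors over 12 libraries (6 of P9 and 6 of P3) after removal of each age's mean of log2(CPM + 1), as a colour grid with both axes listing the factors. Foxf2, Foxs1, Tbx18 and Ebf1 form the block of high r (0.81 to 0.94), and Tbx2 has r below 0 with each of them.

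The genes that varied most like each factor were found by the same measure among 10414 or 10415 genes that averaged 10 CPM or more. For Foxf2 they included Cspg4 (r = 0.979), the NG2 proteoglycan on the pericyte marker list, and Epas1 (0.970), a hypoxia-inducible factor subunit of vascular cells. For Ebf1 they were Extl3 (0.963), Cd248 (0.943), a surface protein of pericytes and fibroblasts, and S1pr3 (0.943), a sphingosine phosphate receptor. Foxc1 varied most like Sft2d2 (0.944), Ets2 (0.903) and Des (0.886), the last being the desmin gene of the pericyte list. The other 5 factors had no pericyte marker among their 10 most alike genes, whereas Foxf2 and Foxc1 had 2 each and Ebf1 had 1.

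For Foxs1 the most alike genes were F2r (0.951), the thrombin receptor, Ncald (0.942) and Lrrc32 (0.938). For Tbx18 they were Itpkb (0.946), Rcsd1 (0.946) and Pcdh18 (0.934). Tbx2 varied most like Fbrsl1 (0.912), Nsfl1c (0.881) and Cabp1 (0.867), and Tbx3 most like Soga1 (0.961), Specc1 (0.943) and Mcmbp (0.925). Those most like Zic1 were Pdlim1 (0.919), Map3k11 (0.885) and Cpxm1 (0.882). All are over 12 libraries, with Spearman's rho between 0.832 and 0.972.

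Relatives of the rising forkhead factors moved in both directions. Of 41 other forkhead genes, 18 were removed by the filter on low counts, 5 of them listed at 0 in every library. Of the 23 tested, 6 rose, 10 fell and 7 were not called, with a median log2 fold change of -0.23. Foxf1, the paralog of Foxf2 that acts in gut and lung mesenchyme, averaged 2.83 ± 1.21 CPM in P9 and 0.376 ± 0.126 CPM in P3 (log2 fold change 2.90 ± 0.39, adjusted p = 2.24e-05). Foxc2, the paralog of Foxc1 needed for lymphatic valves, was chosen here after its values were seen and averaged 4.77 ± 1.41 CPM in P9 and 0.936 ± 0.683 CPM in P3 (2.34 ± 0.41, adjusted p = 0.000256). Both of these close relatives therefore rose as well (SD, n = 6 each, edgeR).

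The more widely expressed Foxn3 (124 ± 12.7 CPM in P9 and 73.4 ± 6.97 CPM in P3, adjusted p = 4.02e-06) and Foxj2 (73.4 ± 2.56 CPM in P9 and 52.2 ± 5.79 CPM in P3, adjusted p = 6.51e-05) rose by less. The falls with the smallest adjusted p were those of Foxo4, a factor under insulin signalling, with 18.5 ± 1.41 CPM in P9 and 45.3 ± 5.37 CPM in P3 (7.06e-08), Foxm1, a driver of mitotic genes, with 11.2 ± 3.47 CPM in P9 and 112 ± 36.4 CPM in P3 (1.37e-07), and Foxn4, a factor of amacrine and horizontal cell fate, with 1.20 ± 1.06 CPM in P9 and 46.5 ± 18.5 CPM in P3 (5.98e-07). Foxm1 and Foxn4 are known from dividing cells and retinal progenitors. Retinal progenitor markers mostly fell in the same libraries, while no marker list of dividing cells was used. The part of those cells was not tested. All these are means ± SD of 6 libraries with edgeR's adjusted p.

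Of 14 other T-box genes, 9 were tested, of which 2 rose, 5 fell and 2 were not called (median log2 fold change -0.60). Tbx15, a relative of Tbx18 in limb and skin mesenchyme, rose (8.42 ± 2.21 CPM in P9 and 1.74 ± 2.08 CPM in P3, log2 fold change 2.27 ± 0.52, adjusted p = 0.00197), as did Tbr1, a factor of cortical and retinal ganglion neurons (3.08 ± 0.259 CPM in P9 and 1.94 ± 0.321 CPM in P3, adjusted p = 0.00873). The strongest falls were those of Eomes (9.64 ± 1.40 CPM in P9 and 20.06 ± 1.86 CPM in P3, adjusted p = 2.34e-06), Tbx6 (3.37 ± 1.07 CPM in P9 and 11.3 ± 2.62 CPM in P3, adjusted p = 1.43e-05) and Mga (214 ± 13.7 CPM in P9 and 339 ± 79.8 CPM in P3, adjusted p = 0.000509), by edgeR's adjusted p. Tbx4, next to Tbx2 on chromosome 11, was removed by the filter.

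Each of the other Ebf genes did something different. Ebf2, known from brown fat and mesenchyme, rose (6.02 ± 2.64 CPM in P9 and 2.34 ± 1.22 CPM in P3, log2 fold change 1.36 ± 0.38, adjusted p = 0.00730). Ebf4 fell (36.1 ± 3.74 CPM in P9 and 47.5 ± 4.34 CPM in P3, -0.39, adjusted p = 0.00139) and Ebf3 was not called (60.8 ± 8.76 CPM in P9 and 65.7 ± 10.4 CPM in P3, -0.11, adjusted p = 0.444, edgeR). Ebf1 and Ebf2 were thus the members of this family that rose.

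Other Zic genes fell. Zic2, which patterns the uncrossed retinal projection in mice, had 11.7 ± 2.87 CPM in P9 and 49.3 ± 4.57 CPM in P3 (-2.08 ± 0.14, adjusted p = 5.03e-08). Zic5 had 3.83 ± 1.20 CPM in P9 and 16.6 ± 1.95 CPM in P3 (-2.12, adjusted p = 8.27e-07). Zic4 had 3.85 ± 1.66 CPM in P9 and 8.05 ± 1.55 CPM in P3 (-1.06 ± 0.25, adjusted p = 0.00275, edgeR). Zic1, which was not called, differed from these relatives in that respect, and only its ratio to Zic4 was tested.

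**Figure D5:**
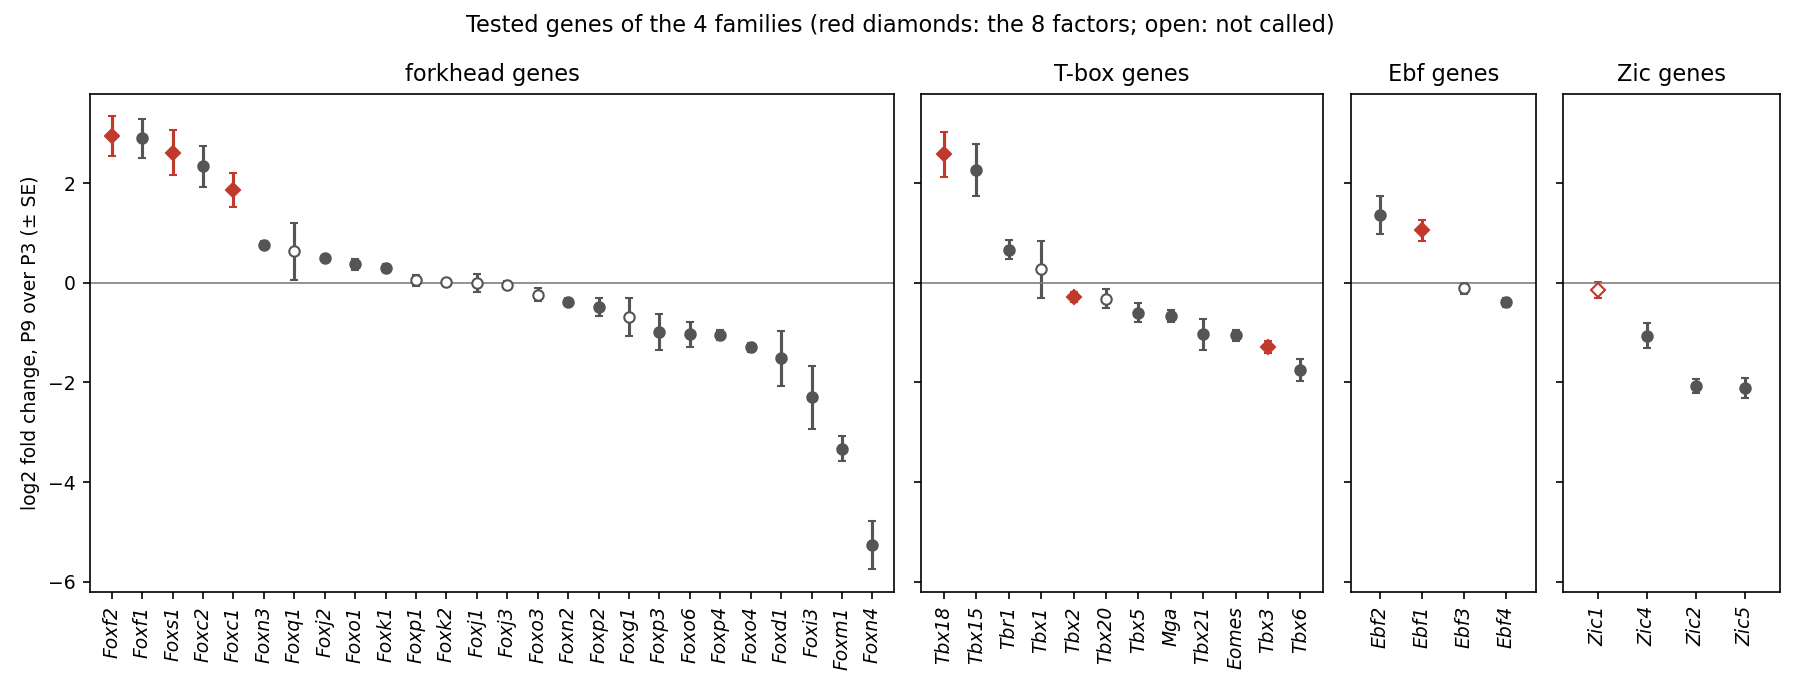
Log2 fold change (y axis, P9 over P3, with its standard error) of tested forkhead, T-box, Ebf and Zic genes (x axis, ordered by change within each family), with the 8 factors as red diamonds and genes that were not called as open symbols. Foxf2, Foxf1, Foxs1, Foxc2 and Foxc1 stand at the top of the forkhead genes, Tbx18 and Tbx15 at the top of the T-box genes, and Zic2, Zic4 and Zic5 lie below 0.

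Among 20 other factors of mural or mesenchymal cells, 17 were tested, of which 10 rose, 2 fell and 5 were not called (median log2 fold change 0.62). Hic1, a repressor of mesenchymal progenitors, had 12.04 ± 3.08 CPM in P9 and 1.19 ± 0.759 CPM in P3 (3.32 ± 0.36, adjusted p = 2.65e-06). Mef2c, a muscle and vascular factor, had 29.1 ± 7.84 CPM in P9 and 7.60 ± 3.43 CPM in P3 (1.94, adjusted p = 3.85e-05), and Epas1 had 215 ± 45.2 CPM in P9 and 86.9 ± 28.9 CPM in P3 (1.30, adjusted p = 6.62e-05). The 2 that fell were Tead1, a partner of YAP (84.8 ± 10.9 CPM in P9 and 119 ± 12.4 CPM in P3, adjusted p = 0.000610), and Hey1, a Notch effector (12.8 ± 1.13 CPM in P9 and 16.6 ± 2.13 CPM in P3, adjusted p = 0.00826, edgeR). Most of these factors therefore moved the way of Foxf2 and Tbx18, while the share of all genes that rose was 26.1%.

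The fall of Tbx2 and Tbx3 was set beside genes that mark the dorsal and ventral poles of the eye. All 5 dorsal genes fell, with a median log2 fold change of -0.74, and 4 of 5 ventral genes fell, with a median of -1.02. Of the dorsal genes, Efnb2 had 57.8 ± 7.78 CPM in P9 and 96.7 ± 10.02 CPM in P3 (adjusted p = 1.48e-05), Aldh1a1, a retinoic acid enzyme, had 26.96 ± 10.5 CPM in P9 and 57.9 ± 7.50 CPM in P3 (adjusted p = 0.000833), and Efnb1 had 18.3 ± 2.96 CPM in P9 and 25.7 ± 3.26 CPM in P3 (adjusted p = 0.00337). Genes of both poles were lower at P9, while the share of all genes that fell was 25.6%.

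Of the ventral genes, the ephrin receptor gene Ephb2 had 88.9 ± 10.2 CPM in P9 and 179.8 ± 18.6 CPM in P3 (adjusted p = 5.04e-07), Ephb3 had 25.7 ± 2.81 CPM in P9 and 41.4 ± 5.65 CPM in P3 (adjusted p = 5.39e-05), and Aldh1a3, another retinoic acid enzyme, had 1.51 ± 0.551 CPM in P9 and 6.51 ± 2.82 CPM in P3 (adjusted p = 0.000105, edgeR). Vax2, a ventral homeobox factor, was the exception and was not called (log2 fold change 0.092, adjusted p = 0.714, edgeR). The part of neural retina in the levels of Tbx2 and Tbx3 was not tested.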

How the data were processed

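RNA recovered with HA-tagged ribosomes from retina was sequenced in 6 libraries of P9 and 6 of P3. For each library the authors deposited RSEM expected counts by gene, without depth scaling, and 15.9% of these values are fractional. The submitters' processing notes name the build mm10 and the tools STAR, RSEM, FastQC, Trim Galore and limma, without versions, roles or annotation. Such counts divide reads of similar genes by a model, so paralogs are less certain.

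Counts were rounded, and 34452 of 53090 genes were removed by filterByExpr. TMM scaling and the quasi-likelihood test came from edgeR 4.0.16 (R 4.3.3); p-values were Benjamini-Hochberg adjusted over 18638 genes, with a threshold of 0.05. The comparison relative to pericyte markers added the mean log2(CPM + 1) of 15 markers as an offset. Ratios of 3 gene pairs used exact permutation tests, and within-age relations exact tests over all pairings, with a pseudocount of 1 CPM. Scripts were tested on simulated data. Coordinates and promoter windows are those of RefSeq on GRCm38.p6, matched by symbol.

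The labelled age gave the groups; replicate numbers follow accession order and pair nothing. The 8 genes, the marker and family lists and the tests were chosen with earlier results of these data known. Named relatives are the 3 with the smallest adjusted p in each direction per family list, and the genes most like each factor are the 3 of highest r, both apart from exceptions named as such and from a few results not reported here. Alternatives covered scaling, filters, tests, thresholds, the pericyte measure, pseudocounts and libraries left out. Library totals set the precision: 1 CPM stood for 25.8 to 38.5 counts.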

Additional observations from a re-analysis of the deposited data

How the results depend on the processing

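Scaling, filter, test and threshold alternatives kept the direction and call of the age changes of Foxf2, Foxc1, Foxs1, Tbx18, Ebf1, Tbx3 and Zic1 wherever the gene was tested, as did leaving out libraries. Their log2 fold changes ranged from 2.75 to 3.84, 1.68 to 2.16, 2.43 to 3.53, 2.36 to 3.49, 0.95 to 1.43, -1.35 to -1.21 and -0.28 to -0.043. With a mean of at least 10 CPM required, 1 factor rose and none was higher relative to the markers (0), since Foxf2, Foxc1, Foxs1 and Tbx18 were then not tested. The fall of Tbx2 was -0.29 and not called at an adjusted p under 0.01, leaving 1 factor that fell, and -0.27 (adjusted p = 0.0548, edgeR) without P9 replicates 5 and 6, again leaving 1; leaving out each library gave -0.34 to -0.24, with 1 to 2 factors that fell.

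Relative to the markers, 0 factors were higher with the summed CPM (Foxf2 0.67) or with Pdgfrb alone (Foxf2 0.55, Foxc1 -0.81 and then called, adjusted p = 0.0346, edgeR), and 1 to 2 were with each library left out (Foxf2 0.81 to 1.16, Foxs1 0.44 to 0.81, Foxc1 -0.42 to 0.0033). Chosen after seeing the data, fits without the close pair P3 replicates 4 and 5 gave 3 higher factors (Foxs1 0.99, Tbx18 0.95), and without P9 replicates 5 and 6 gave 2 (Foxs1 0.77). The near-zero P9 correlation of Tbx2 with the marker mean changed sign, to 0.288 without the 2 farthest libraries, 0.441 without replicates 5 and 6, and -0.377 to 0.514 with each library left out. The cause of these changes was not tested. Differences of the 3 gene pairs and the counts of family genes stayed within the same call or within 1.5 times. Low counts limit Foxf2, Foxs1 and Tbx18 at P3. No paired analysis was possible because replicate numbers were assigned here in accession order and the labels hold none.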
